A study of Arabidopsis thaliana with 6 samples.

Results

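The genes described here are the 40 sugar carriers of 3 Arabidopsis families: the 14 hexose/H+ symporters STP1 to STP14, the 9 sucrose/H+ symporters SUC1 to SUC9 and the 17 SWEET facilitators SWEET1 to SWEET17. They were taken by locus code, whatever their signal, and all 40 were on the array, among 27827 features in all. RNA came from mature pollen grains of Arabidopsis thaliana, ecotype Columbia 0, with 3 biological replicates of wild type and 3 of the NOT1+/- mutant, whose plants are heterozygous at NOT1. The NOT1 protein holds together CCR4-NOT, the complex that removes poly(A) tails from messenger RNAs. Per the labels' protocols, about 300000 grains per sample were sorted by flow cytometry after a mesh had removed flower parts, and 100 ng of total RNA was amplified for a 1-colour Affymetrix array that covers whole transcripts. A heterozygous plant sheds grains with and grains without the mutant allele, and both kinds are mixed in each NOT1+/- sample. The sources used here do not give the type of mutation.

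A pollen grain leaves the anther cut off from the plant's phloem, the tissue that carries sucrose from leaves to sinks, and its tube later takes up sugar from the pistil. STP proteins bring glucose and other monosaccharides into the cell together with protons, SUC proteins do the same for sucrose, and SWEET proteins let sugar pass down its gradient in either direction without protons. Cell wall invertases outside the cell split sucrose into glucose and fructose, which links the sucrose route to the hexose route, and hexokinases phosphorylate hexoses once they are inside.

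The genotypes parted along the first principal component of the log2 values (62.7% of the variance), and wild-type replicate 3 stood apart along the second (14.3%). The NOT1 row (AT1G02080_at) had mean intensities of 48.5 ± 2.20 for wild type and 31.0 ± 2.11 for NOT1+/- (SD, n = 3), with a log2 fold change of -0.65 (limma adjusted p = 0.0295); no fit that lacked 1 array called it (adjusted p 0.0527 to 0.118), and neither did median centring (0.0546), while the fold stayed between 1.48 and 1.61 in these fits. Markers of the labelled cell type were bright: 10 pollen genes had wild-type means from 59.7 to 3070, and 4 of them rose in NOT1+/- and none fell. The largest of these rises was that of TIP1;3, from a mean of 59.7 to 784 (log2 fold change 3.705, limma adjusted p = 1.13e-05). ACT4 rose 2.89-fold, ACT12 1.94-fold and ANX1 1.53-fold. The summed intensity of the 10 pollen genes ran from 10990 to 11690 in wild type and from 13020 to 13660 in NOT1+/-. Of 3 sperm genes 1 rose, and their summed intensity ran from 250.7 to 273 in wild type and from 299 to 468 in NOT1+/-. Over all features 8.84% were called higher in NOT1+/- and 3.22% lower, and these marker lists are too short to be read against those shares. Of 8 leaf photosynthesis, 9 tapetum and 5 floral organ genes none rose, 1, 1 and 0 fell, and the highest group means were 14.8, 37.4 and 21.5. These were the means of PSAD1 in wild type and of A9 and PI in NOT1+/-, at percentiles 58.4, 82.6 and 73.6 of all features. The summed intensities of the 3 lists ran from 74.9 to 79.5 and from 53.3 to 62.4 for the leaf genes, from 121.7 to 141.5 and from 109.9 to 129.7 for the tapetum genes, and from 54.3 to 57.2 and from 48.6 to 62.4 for the floral genes, in wild type and NOT1+/- in that order. What part these differences have in the results on sugar carriers was not tested. In a whole grain, a change in the number of cells of a type and a change in RNA per cell cannot be told apart.

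Of the 40 carriers, 4 were higher in NOT1+/- pollen and 1 was lower. SWEET5, which passes sugar across the membrane of the pollen vegetative cell, rose 13.9-fold. SUC1, the proton-coupled sucrose importer known from pollen, rose 6.85-fold, and SUC3, a sucrose carrier of sink tissues, rose 2.22-fold. STP4, a monosaccharide importer of sinks, rose 2.06-fold. SUC5, a sucrose carrier known from the seed endosperm, fell to 64.3% of its wild-type level, from a signal near the array medians. The SUC5 call was not stable: it held in 2 of the 13 alternative settings that tested it. That of STP4 held in 11 of 15. STP11, the hexose importer of pollen and pollen tubes, had a high signal in both genotypes, with means of 1737 and 1569, and no called change.

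These 5 calls made 12.5% of the members, and over all features 12.1% were called in either direction (limma, Benjamini-Hochberg adjusted p under 0.05). Calls higher in NOT1+/- made 10% of the members against 8.84% of all features, and calls lower made 2.5% against 3.22%. A change of at least 2-fold upward was called in 4 members, 10% against 6.44%, and of at least 4-fold in 2 members, 5.0% against 2.68%. No member was called with a fall of at least 2-fold, against 0.751% of all features. The shares in either direction lay near those of all features, so the 3 families as a group did not stand out by how many members were called. The median log2 fold change was -0.03 over the 40 members and -0.10 over all features. By family it was -0.0039 for STP, -0.04 for SUC and -0.04 for SWEET, with 1 of 14 STP, 3 of 9 SUC and 1 of 17 SWEET genes called. Within the 40 members SWEET5 and SUC1 stood apart by the size of their changes. They took the 141st and the 379th place from the top among the log2 fold changes of all 27827 features. Such sizes were not particular to these carriers, as 747 features were called higher by at least 4-fold. The pollen marker TIP1;3 took the 161st place, the hexokinase-like gene HKL3 the 369th and the invertase gene CWINV4 the 445th.

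**Figure D1:**
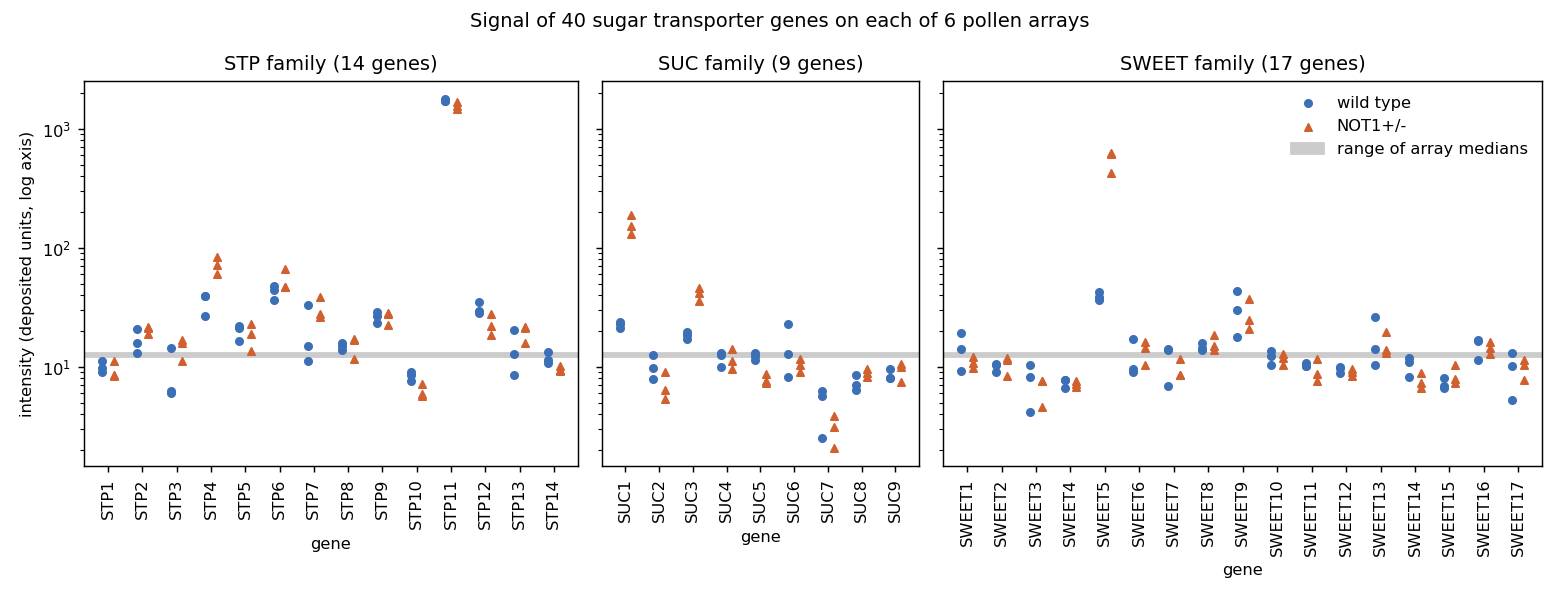
Intensity of each of the 40 carriers on each array, on a log axis, by family; circles are the 3 wild-type arrays, triangles the 3 NOT1+/- arrays and the grey band the range of the array medians, 12.03 to 13.13. STP11 has means of 1737 and 1569, many other rows lie close to the band, and the NOT1+/- values of SWEET5 and SUC1 lie far above their wild-type values.

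In wild-type pollen the geometric mean of 21 of the 40 members lay under the median over all features (12.5), as that of 13913 of the 27827 features did. For 8 of the 40 it lay above the 75th percentile (21.0), as for 6957 of all features. In 17 members both group means lay under the lowest array median of 12.03. Signals of different genes come from different probes. Percentiles and the words high and dim therefore place a row among the signals of the array and do not compare amounts of RNA between genes. No detection calls were used, so a dim row cannot be called absent, and the size of a change that starts from a dim row is uncertain.

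Among the SWEET genes, SWEET5 (AT5G62850_at, also named VEX1 for its expression in the vegetative cell) had intensities of 36.6, 42.6 and 38.8 on the wild-type arrays and of 614, 626 and 422 on the NOT1+/- arrays. The genotypes did not overlap, and the lowest NOT1+/- value, in replicate 3, was still far above the highest wild-type value. The means were 39.3 ± 3.00 and 553.9 ± 114 (SD, n = 3), which moved the gene from percentile 86.4 to percentile 97.9 of all features. On the log2 scale the change was 3.80 (95% interval 3.33 to 4.26, SE 0.20, limma adjusted p = 1.8e-05).

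No other SWEET gene was called. SWEET9, known as the sucrose exporter of nectaries, had 43.4, 29.9 and 17.9 in wild type and 37.1, 24.6 and 20.7 in NOT1+/-. These values overlapped and were widely spread within each genotype (log2 fold change -0.10, 95% interval -0.91 to 0.72, limma adjusted p = 0.896). SWEET8 and SWEET13, known as RPG1 and RPG2 for their part in patterning the pollen wall at the microspore stage, had means of 14.7 ± 0.956 and 16.8 ± 8.27 in wild type and of 15.8 ± 2.49 and 15.5 ± 3.56 in NOT1+/-. The wild-type mean of SWEET13 rested mainly on replicate 1, at 26.1 against 14.1 and 10.3. SWEET11 and SWEET12, the sucrose exporters that feed the leaf phloem, had means of 10.4 and 9.56 in wild type and of 9.31 and 9.01 in NOT1+/-, all under the array medians. SWEET16 and SWEET17, vacuolar facilitators, had log2 fold changes of -0.03 and 0.14. Over the 16 SWEET genes not called the log2 fold change ran from -0.44 (SWEET14, limma adjusted p = 0.228) to 0.23 (SWEET15), and their genotypes overlapped in every case.

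**Figure D2:**
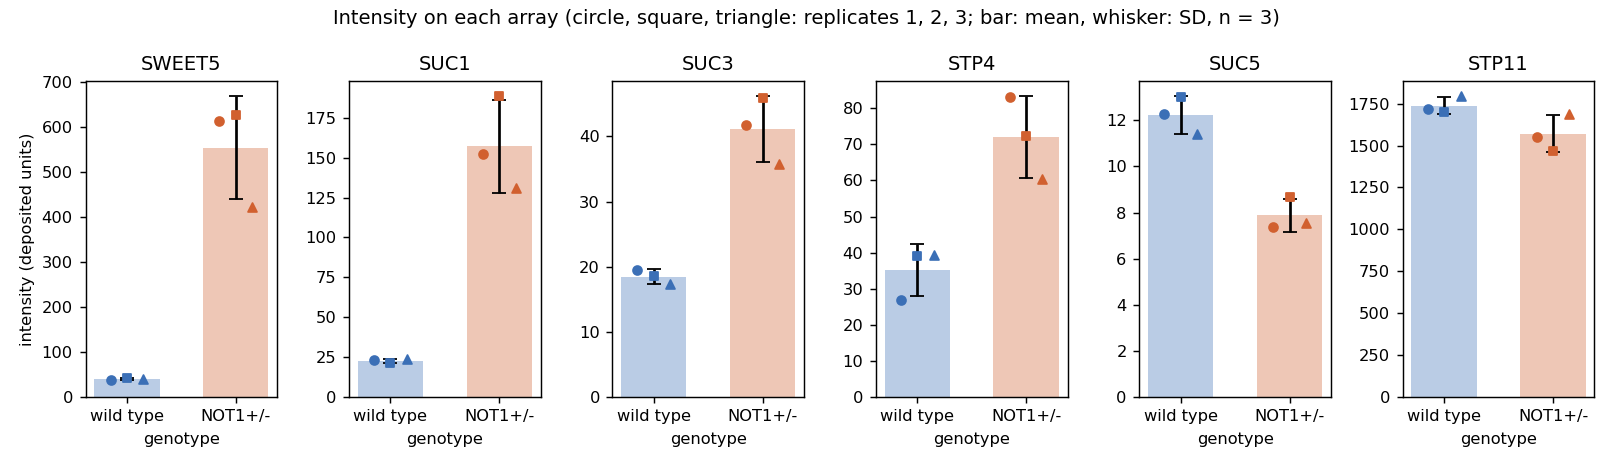
Intensity of the 5 called carriers and of STP11 on each array, with a separate axis from 0 for each gene; bars are means, whiskers SD (n = 3), and the circle, square and triangle are replicates 1, 2 and 3. In SWEET5, SUC1, SUC3 and STP4 all NOT1+/- points lie above all wild-type points, and NOT1+/- replicate 3 is the lowest of its group in each.

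In the sucrose carrier family, SUC1 (AT1G71880_at) had intensities of 23.1, 21.3 and 23.7 in wild type and of 152, 189 and 131 in NOT1+/-. The wild-type arrays were close together and every NOT1+/- array lay far above them. The means were 22.7 ± 1.26 and 157 ± 29.2 (SD, n = 3), and this was a log2 fold change of 2.78 (95% interval 2.35 to 3.20, SE 0.18, limma adjusted p = 5.05e-05). The size depended on how dim values were treated: with 16 intensity units added before log2 the fold was 4.43.

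SUC3 (AT2G02860_at, also named SUT2) had 19.5, 18.6 and 17.3 in wild type and 41.8, 45.9 and 35.8 in NOT1+/-. The genotypes did not overlap, with means of 18.5 ± 1.10 and 41.1 ± 5.05. On the log2 scale the change was 1.15 (95% interval 0.77 to 1.53, SE 0.17, limma adjusted p = 0.00279). SUC5 (AT1G71890_at) went the other way, with 12.3, 13.03 and 11.4 in wild type and 7.39, 8.68 and 7.56 in NOT1+/-. Its log2 fold change was -0.64 (SE 0.16, 95% interval -1.002 to -0.27, limma adjusted p = 0.0369). No fit that lacked 1 array called it (adjusted p 0.0575 to 0.135), and neither did the trended and robust variance model (0.062).

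The other 6 SUC genes were dim and not called. SUC2, the phloem loader of leaf companion cells, had 12.49, 7.88 and 9.87 in wild type and 5.42, 9.10 and 6.35 in NOT1+/-. The genotypes overlapped, and the interval of its log2 fold change ran from -1.13 to 0.05 (estimate -0.54, limma adjusted p = 0.229). SUC4, a carrier of the vacuolar membrane, had means of 11.9 ± 1.77 and 11.7 ± 2.28. SUC6 to SUC9 are close relatives in sequence, of which SUC6 and SUC7 are known to make aberrant transcripts in the Columbia ecotype. Their values ran from 2.07 to 22.9, SUC7 had means of 4.84 ± 2.00 and 3.02 ± 0.899, and their log2 fold changes were -0.37, -0.62, 0.29 and 0.11. Whether their probes also take up RNA of a relative was not tested. No member had the same 6 values as any other feature, so none shared its whole probe set with another row.

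**Figure D3:**
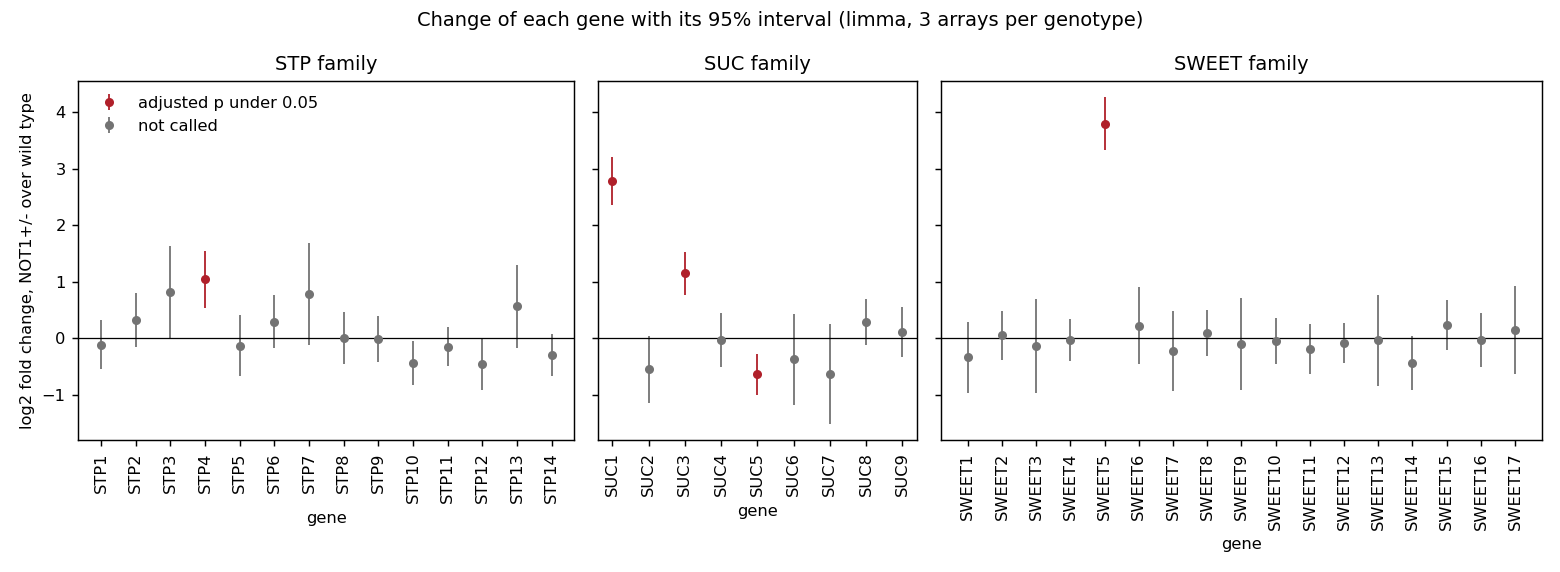
Log2 fold change of each carrier, NOT1+/- over wild type, with its 95% interval (limma, 3 arrays per genotype); red points passed the adjusted p threshold of 0.05 and grey points did not. SWEET5 at 3.80 and SUC1 at 2.78 lie far above the rest, SUC3 and STP4 lie a little above 1, SUC5 lies at -0.64, and the intervals of most other genes cross 0.

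Among the hexose carriers, STP11 (AT5G23270_at) had intensities of 1717, 1698 and 1795 in wild type and of 1552, 1469 and 1687 in NOT1+/-. All 3 NOT1+/- values lay under all 3 wild-type values, but by little: the means were 1737 ± 51.4 and 1569 ± 110 (SD, n = 3), 90.2% of the wild-type level. On the log2 scale this was -0.15 (95% interval -0.50 to 0.20, SE 0.15, limma adjusted p = 0.587). It stood at percentile 99.6 of all features in wild type and 99.4 in NOT1+/-.

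STP4 (AT3G19930_at) had 26.9, 39.2 and 39.4 in wild type and 83.2, 72.5 and 60.4 in NOT1+/-, with no overlap. The means were 35.2 ± 7.13 and 72.0 ± 11.4 (log2 fold change 1.04, SE 0.22, 95% interval 0.54 to 1.54, limma adjusted p = 0.0175). The call was lost without NOT1+/- replicate 1 (adjusted p = 0.0787) or 2 (0.0674) and after quantile normalization (0.0633). STP6 and STP9, hexose importers that appear late in pollen development, had no called change. STP6 had 36.8, 48.1 and 44.3 in wild type and 46.9, 65.8 and 46.9 in NOT1+/- (log2 fold change 0.29, 95% interval -0.17 to 0.76, limma adjusted p = 0.411). STP9, specific for glucose, had 28.9, 23.5 and 26.8 against 27.9, 28.5 and 22.3, with means of 26.4 ± 2.72 and 26.3 ± 3.42. The interval of its log2 fold change, -0.42 to 0.40, did not reach a change as large as that of STP4.

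STP12 had 29.6, 28.5 and 34.8 in wild type and 18.7, 22.2 and 27.6 in NOT1+/-. Its genotypes did not overlap, yet the change was not called (log2 fold change -0.45, SE 0.20, limma adjusted p = 0.195). STP10, the glucose importer of growing pollen tubes, was dim in these ungerminated grains, with 7.67, 8.53 and 9.09 in wild type and 5.70, 5.97 and 7.16 in NOT1+/-. These did not overlap, but the log2 fold change of -0.43 (SE 0.17) was not called (limma adjusted p = 0.156). STP2, known from the release of microspores, had means of 16.7 ± 3.99 and 20.6 ± 1.44.

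Some STP rows turned on single wild-type arrays. STP3 had 6.04, 6.30 and 14.3 in wild type and 16.8, 11.2 and 15.9 in NOT1+/-, and it was called higher when wild-type replicate 3 was left out (log2 fold change 1.22, limma adjusted p = 0.0133, against 0.193 with all arrays). STP7, known to carry arabinose and xylose, had 33.1, 15.1 and 11.2 in wild type and 39.0, 26.0 and 28.0 in NOT1+/-. It was called higher when wild-type replicate 1 was left out (1.23, limma adjusted p = 0.0273, against 0.257). Over the 13 STP genes not called the log2 fold change ran from -0.45 to 0.82, and STP13, a hexose importer known from defence, had 0.57.

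Taking the 3 families together, the NOT1+/- arrays lay wholly above the wild-type arrays in 4 members, 10% against 14.9% of all features, and these were the members called higher. They lay wholly below in 5 members, 12.5% against 16.9%, which were SUC5, STP10, STP11, STP12 and STP14. For any such row the exact two-sided permutation test over arrays gives p = 0.1, the smallest that 3 against 3 allow. Of the 35 members not called, 2 had an unadjusted limma p under 0.05, STP3 and STP10. With the called members these made 7 of the 40, 17.5% against 25.7% of all features. The 95% interval lay within a log2 change of -1 to 1 in 29 of the 35, while in the remaining 6 (STP3, STP7, STP13, SUC2, SUC6 and SUC7) a 2-fold change in 1 direction lay inside the interval.

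NOT1+/- replicate 3 had the lowest value of its group in all 4 members that rose, and over the array it was the lowest in 77.5% of the 2461 features called higher. Among the 1792 features called higher by at least 2-fold, as these 4 members were, it was the lowest in 83.0%. In SWEET5 it reached 422 against 614 and 626. The summed intensity of the 3 sperm markers was, by contrast, highest in NOT1+/- replicate 3, at 468 against 299 and 333. The part of this in the sizes given was not tested; without that replicate the log2 fold changes were 3.98 for SWEET5, 2.90 for SUC1, 1.25 for SUC3 and 1.16 for STP4. Without wild-type replicate 3, the array set apart by the second component, they were 3.79, 2.81, 1.11 and 1.14, and all 4 were called.

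Pairs of carriers lie next to each other on the chromosome. In the order of protein-coding genes that the reference table gives for TAIR10.1, the adjacent pairs among the 40 were SUC1 with SUC5, STP4 with STP10, and SWEET10 with SWEET13. The within-array log2 ratio of SUC1 to SUC5 was higher in NOT1+/- by 3.41 and that of STP4 to STP10 by 1.47, both with no overlap between genotypes, while that of SWEET10 to SWEET13 differed by -0.0051. STP10 lay under the array medians in both genotypes and SUC5 in NOT1+/-, so the first 2 sizes are uncertain. In these 2 pairs each gene alone already parted the genotypes, in opposite directions. The lack of overlap in their ratios, and its p below, thus followed from the single rows and adds no support. Exact permutation tests, two-sided, gave p = 0.1, 0.1 and 1.0, or 0.15, 0.15 and 1.0 adjusted over the 3 pairs, and 0.1 is the smallest the design allows. In the third pair the genotypes overlapped.

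**Figure D4:**
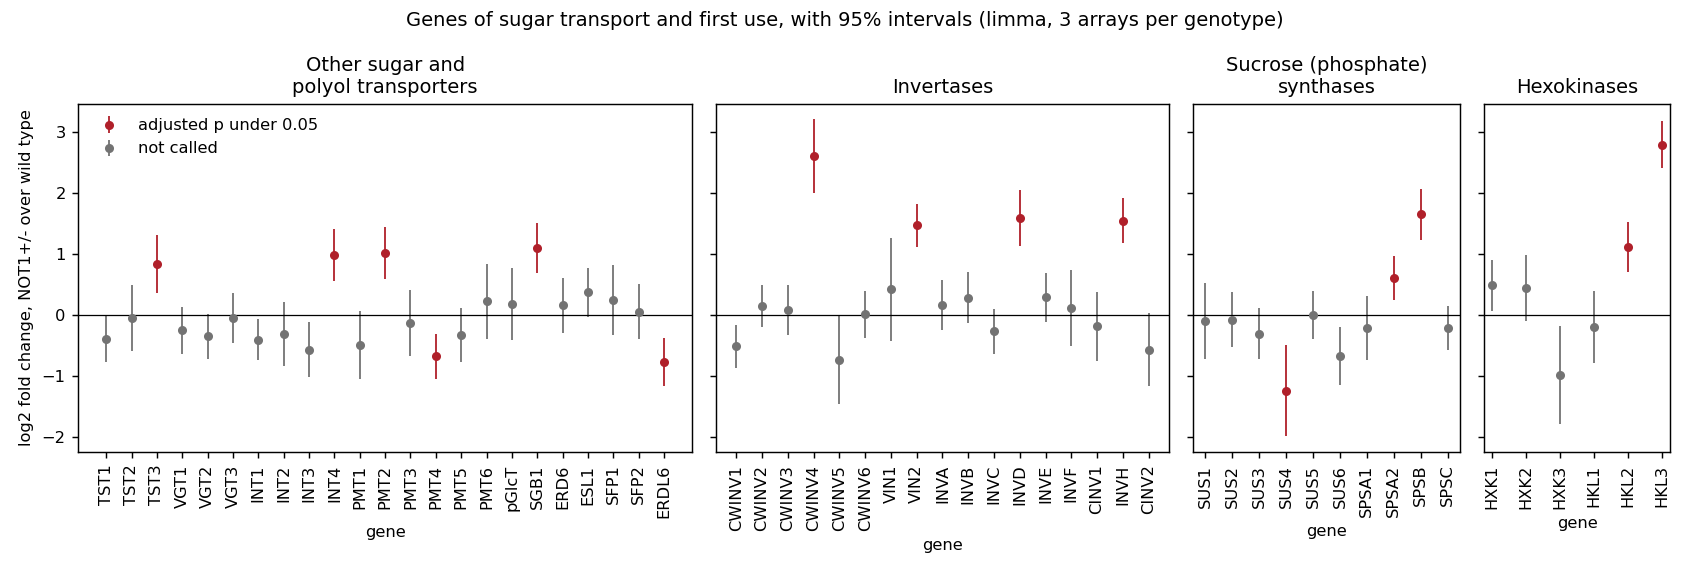
Log2 fold change, NOT1+/- over wild type, with 95% interval for 56 genes around the carriers, in 4 lists; red points passed the adjusted p threshold of 0.05 and grey points did not. CWINV4 at 2.61 and HKL3 at 2.79 are the largest rises, and SUS4 at -1.25 is the largest called fall.

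The carriers work beside other transporters and the enzymes that split, make and phosphorylate sugars, and 56 such genes were followed in 4 lists. In all 12 rose, 3 fell and 41 were not called. This is 21.4% higher and 5.36% lower, against 8.84% and 3.22% of all features, and the median log2 fold change was 0.0014 against -0.10. No set test was made, and nothing particular to these lists is read from the shares.

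Of 17 invertases 4 rose and none fell (median log2 fold change 0.14). CWINV2 (AT3G52600_at), a cell wall invertase with a high signal, had means of 1661 ± 58.4 and 1836 ± 103 and was not called (log2 fold change 0.14, limma adjusted p = 0.595). CWINV4 (AT2G36190_at), the cell wall invertase known from nectaries, had 12.2, 15.2 and 7.92 in wild type and 74.0, 75.9 and 59.4 in NOT1+/-. It rose by 2.61 on the log2 scale (SE 0.26, limma adjusted p = 3.88e-04). The vacuolar invertase VIN2 (AT1G12240_at) rose from 77.4 ± 2.74 to 215 ± 15.9. Of the neutral invertases, INVH (AT3G05820_at) rose from 301.4 ± 13.8 to 882 ± 94.4 and INVD (AT1G22650_at) from 45.1 ± 8.99 to 135 ± 15.2. These 4 rises, between 2.77-fold and 6.09-fold, were called under every alternative run, although CWINV4 started from a mean of 11.8, under the array medians, and had 3.09-fold with 16 units added before log2.

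Of 6 hexokinases and hexokinase-like genes 2 rose and none fell (median log2 fold change 0.47). HKL3 (AT4G37840_at), a hexokinase-like protein, had 24.4, 21.4 and 24.04 in wild type and 171, 173 and 142 in NOT1+/-. It rose by 2.79 on the log2 scale (SE 0.16, limma adjusted p = 2.91e-05), or 6.94-fold, and had 4.52-fold with 16 units added before log2. HKL2 (AT3G20040_at) rose from 64.1 ± 7.08 to 139 ± 17.6. HXK1, the hexokinase that also serves as a glucose sensor, had 74.1 ± 7.33 and 104 ± 15.9 and was not called (log2 fold change 0.49, limma adjusted p = 0.137), but it was called under the trended and robust variance model (0.0334) and with 16 units added (0.034).

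Of 10 sucrose synthases and sucrose phosphate synthases 2 rose and 1 fell (median log2 fold change -0.16). SPSB (AT1G04920_at) had 7.70, 7.29 and 8.03 in wild type and 24.2, 28.8 and 20.0 in NOT1+/-. It rose by 1.65 on the log2 scale (SE 0.18, limma adjusted p = 6.74e-04), from a signal under the array medians; it had 1.70-fold with 16 units added. SPSA2 rose by 0.61 on the log2 scale from a wild-type mean of 88.0 ± 6.98 (limma adjusted p = 0.0434), a call lost when any 1 array was left out (0.0705 to 0.128), after 75th percentile centring (0.0763) and after quantile normalization (0.564, with 0.17 on the log2 scale). SUS4, a sucrose synthase, fell by 1.25 on the log2 scale, from 13.3 ± 5.89 to 5.35 ± 1.16 (limma adjusted p = 0.0438). Its call was lost when wild-type replicate 1, wild-type replicate 3 or any NOT1+/- replicate was left out (0.0621 to 0.146), after quantile normalization (0.0648) or median centring (0.063), and with 16 units added (0.0511). With a floor at the array median its fold was 1.24 in place of 2.37 (0.277), so the size of this fall from a dim row is uncertain.

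Of 23 other monosaccharide and polyol transporters 4 rose and 2 fell (median log2 fold change -0.06). On the log2 scale the hexose carrier SGB1 rose by 1.10, the polyol and monosaccharide carrier PMT2 by 1.02 and the inositol carrier INT4 by 0.99 (limma adjusted p = 0.00554, 0.0093 and 0.0105), the last not after quantile normalization (0.0542). TST3, a sugar carrier of the vacuolar membrane, rose by 0.83 (limma adjusted p = 0.0368), a call that was lost without replicate 1 or 2 of either genotype (0.088 to 0.128) and after 75th percentile centring (0.0611). The falls were ERDL6, a glucose exporter of the vacuole, from 178 ± 22.6 to 104 ± 11.1, and PMT4, from 80.8 ± 5.87 to 50.4 ± 4.42, both named after their values were seen. ERDL6 lost its call when wild-type replicate 2, NOT1+/- replicate 1 or NOT1+/- replicate 3 was left out (limma adjusted p 0.0689 to 0.101), and PMT4 without each array other than NOT1+/- replicate 3 (0.0525 to 0.117) and after median centring (0.0574). VGT1, a vacuolar glucose carrier, had 296 ± 21.3 and 249.7 ± 31.5 and was called only after quantile normalization (log2 fold change -0.86, limma adjusted p = 0.0117).

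**Figure D5:**
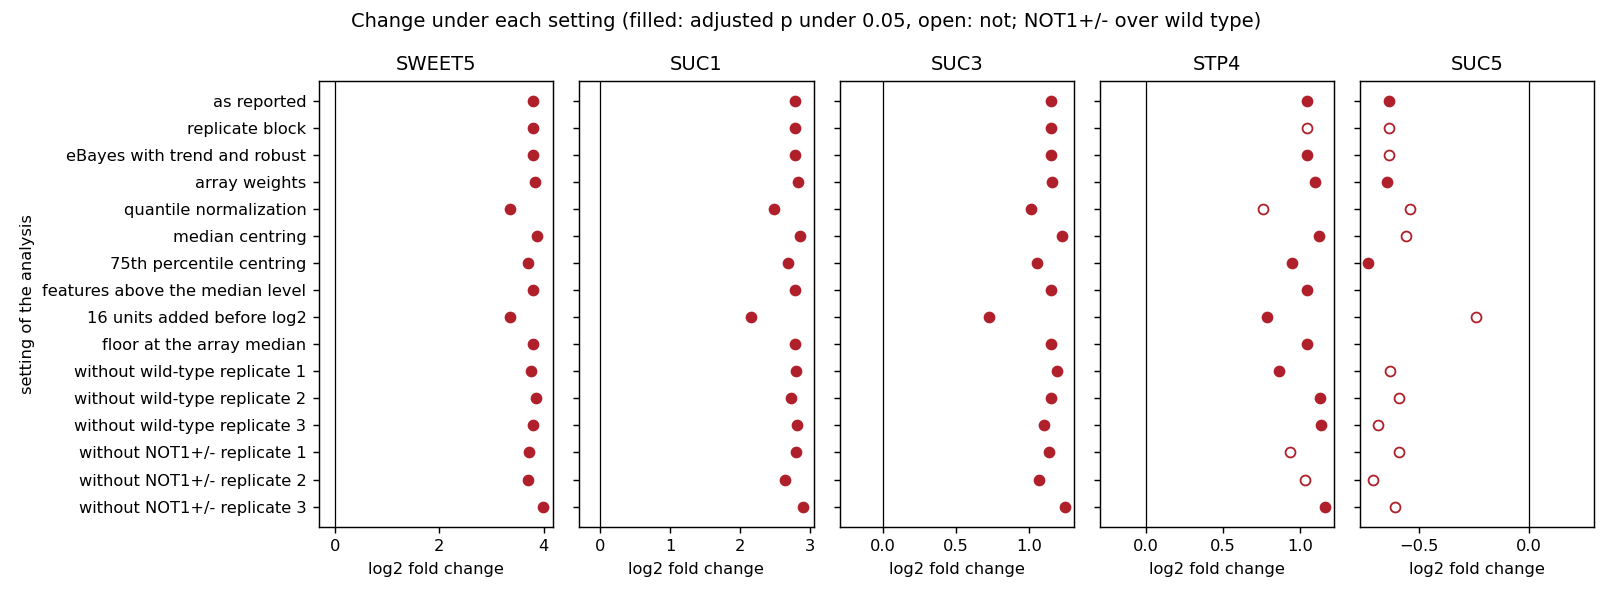
Log2 fold change, NOT1+/- over wild type, of the 5 called carriers (columns, each with its own axis) under the reported setting and each alternative (lines); filled points have an adjusted p under 0.05 and a missing point means that the gene was not in that test. SWEET5, SUC1 and SUC3 are filled throughout, STP4 is open in 4 alternatives, and SUC5 is filled in 2 alternatives.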

How the data were processed

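The deposited table holds linear intensity values, 1 per locus and array, and the smallest was 1 on each array. Affymetrix Expression Console was used, per the submitters' processing notes; the sources used here do not give its version, background correction or scaling. Array medians ran from 12.33 to 13.13 in wild type and from 12.03 to 12.31 in NOT1+/-. The 95th percentiles ran from 133 to 141 in wild type and were higher in NOT1+/-, from 193 to 201.5. The number of arrays limits the precision, and with no scan dates used no batch was tested.

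Log2 of each value, with no offset or filter, was fitted with limma 3.58.1 (R 4.3.3) over all 27827 features as NOT1+/- minus wild type, with Benjamini-Hochberg adjustment over all of them and calls at an adjusted p under 0.05. The fit was also run on simulated data with independent normal noise and few changed features, which does not show how it behaves on these arrays. Folds are ratios of geometric means; group values are arithmetic means ± SD. Permutation tests used scipy 1.17.1 and figures matplotlib 3.10.9. All 40 members matched a locus in the reference gene table (TAIR10.1), used for names and gene order only; names of other genes and all roles are background knowledge.

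Values on every array are given for members that were called or whose wild-type geometric mean exceeded the 75th percentile, and for a few others; pathway genes named are up to 4 called per list with the largest change and the brightest in wild type, unless stated otherwise. The members and lists were chosen with earlier results of these data known. Promoter motifs were not analysed here. The alternatives were a replicate block, another variance model, array weights, 3 scalings, 3 treatments of dim rows and leaving out each array.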

Additional observations from a re-analysis of the deposited data

How the results depend on the processing

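SWEET5, SUC1 and SUC3 were called higher in all 15 alternatives, with log2 fold changes of 3.34 to 3.98, 2.15 to 2.90 and 0.73 to 1.25. STP4 was called in 11 of 15 (0.76 to 1.16) and SUC5 in 2 of the 13 that tested it (-0.73 to -0.24). Same-numbered arrays of the genotypes did not deviate together (r = 0.114, 0.133 and -0.013 for replicates 1, 2 and 3), so the numbers were not taken to pair them. With the replicate block STP4 and SUC5 were not called, so 0 STP and 0 lower members remained, and the calls over all features, lower, numbered 555; the other transporters had 1 fall and the sucrose synthases 1 rise, and NOT1 (adjusted p = 0.0696), TST3 (0.0773), PMT4 (0.0562) and SPSA2 (0.0977) lost their calls. The call of SUC5, the only fall among the 40 members and among the SUC genes, was also lost (0 lower) under the trended and robust model, quantile normalization, median centring, the filter for features above the median level, 16 added units and the floor at the array median; the filter and the floor left SUC5 untested. Falls over all features then numbered 1458, 1991, 571, 1515, 1490 and 1586, and 1460 after 75th percentile centring, which also gave 1 fall among invertases. Of all calls 73.3% were higher, against 52.5% after quantile normalization and 60.2% after 75th percentile centring. Quantile normalization gave 0 STP calls, 5 falls among other transporters, and 1 rise and 0 falls among sucrose synthases; median centring 1 fall among other transporters and 0 among sucrose synthases; the filter and the floor 4 and 5 falls among other transporters; 75th percentile centring 1 rise and 16 added units 0 falls among sucrose synthases. The median log2 fold change of the STP family was 0.15 over the 10 members left by the filter; that of the SUC family was 1.96 over 2 and 0.56 over 4 members left by filter and floor, and -0.13 after 75th percentile centring. Leaving out 1 array gave 0 falls among members, 0 to 2 STP rises, 0 SUC falls, 258 to 711 falls over all features, 0 to 1 falls among other transporters, 1 rise and 0 to 1 falls among sucrose synthases, 0 to 1 falls among hexokinases, and family medians of -0.061 to 0.14 for STP and -0.18 to 0.043 for SUC.

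Of the 40 members, 24 kept their direction throughout and 16, none called in any setting, changed sign 48 times in all (limma adjusted p of at least 0.465 when turned). After quantile normalization these were STP6 (-0.0023), SUC4 (0.040), SWEET4 (0.060), SWEET10 (0.043), SWEET12 (0.0041) and SWEET16 (0.015). After median centring they were STP9 (0.068), SUC4 (0.042), SWEET4 (0.049), SWEET10 (0.038), SWEET13 (0.043) and SWEET16 (0.049), and after 75th percentile centring STP8 (-0.093) and SWEET2 (-0.044). With array weights they were STP9 (0.025), SUC4 (0.016) and SWEET16 (0.020). Without 1 array the values ran from -0.30 to 0.080 for STP5, -0.093 to 0.19 for STP8, -0.092 to 0.10 for STP9, -0.18 to 0.10 for SUC4, -0.72 to 0.02 for SUC6, -0.041 to 0.21 for SWEET2, -0.51 to 0.13 for SWEET3, -0.10 to 0.017 for SWEET4, -0.026 to 0.18 for SWEET8, -0.44 to 0.21 for SWEET9, -0.14 to 0.043 for SWEET10, -0.33 to 0.34 for SWEET13, -0.21 to 0.066 for SWEET16 and -0.23 to 0.42 for SWEET17. Where not given by the alternative's own construction, the cause was not tested. In 17 of the 40 members both group means lay under the array medians, and no detection calls were used, so how far signal over background limits their sizes is not known.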
